A study of Mus musculus with 3 samples.

Results

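The GIMAP family (GTPases of immunity-associated proteins) was examined in mouse thymocytes, which are T cells at their stages of development in the thymus. The family was taken as the 8 genes Gimap1, Gimap3, Gimap4, Gimap5, Gimap6, Gimap7, Gimap8 and Gimap9, all of which were found among 19938 named genes. Each is measured by 1 probe set, a group of probes on the array that together report 1 transcript. RNA was measured on 3 Affymetrix whole-transcript arrays, 1 per genotype. The wild type sample came at an age of 12 weeks, the β-catenin transgenic sample at 16 weeks and the TCF-1-deficient (TCF-1-/-) sample at 8 weeks. The labels do not give the promoter of the transgene, the number of mice behind each sample or the strain. The study looked for target genes of the pathway in which β-catenin acts with the transcription factor TCF-1, with thymocyte development and cell death as its interests.

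GIMAP proteins are small GTP-binding proteins found mainly in lymphocytes, and their genes lie side by side in the genome. Several are needed for the survival and quiescence of T cells, and some members are known to rise as thymocytes mature from the CD4+CD8+ double-positive to the single-positive stage. Members sit on membranes such as those of lysosomes, mitochondria and the endoplasmic reticulum, and some have been reported to bind proteins of the BCL-2 family.

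All values are deposited log2 values, and a difference is the log2 value of 1 array minus that of another. With 1 array per genotype there is no replicate, so no value has an error or a test. Genotype cannot be told apart from age or handling, nor from sex-linked differences in comparisons with the transgenic array. Xist, the RNA of the inactive X chromosome, was at log2 values of 12.49, 4.86 and 12.17 on the wild type, transgenic and TCF-1-deficient arrays, and the Y-linked gene Eif2s3y at 3.73, 8.43 and 3.84. By these genes the wild type and TCF-1-deficient arrays were alike, and the transgenic array differed from both. The T cell gene Cd3e, a subunit of the T cell receptor complex, was at 13.42, 13.34 and 13.05 in the same order, and the thymocyte surface gene Thy1 at 13.18, 13.25 and 12.57. Genes are counted as higher or lower once the difference reaches 1, which is 2-fold. The spread that can be seen within an array is that between probe sets of 1 gene. Over 999 genes with several probe sets, the differences of a gene's own probe sets spanned a median of 0.12 and a 95th percentile of 0.88 for TCF-1-deficient minus wild type. For transgenic minus wild type they spanned 0.05 and 0.42. This spread does not cover differences between mice.

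The 250 bases before the start site of the 3 members called lower without TCF-1 are shown first, since TCF-1 binds DNA directly. All are on chromosome 6, read from the RefSeq promoter table of build GRCm38.p6 and written on the strand of the gene. Capitals mark the letters CTTTGA or CTTTGT, which hold the core of the TCF/LEF recognition sequence and were searched on both strands.
Gimap3, chr6:48770852-48771101, minus strand: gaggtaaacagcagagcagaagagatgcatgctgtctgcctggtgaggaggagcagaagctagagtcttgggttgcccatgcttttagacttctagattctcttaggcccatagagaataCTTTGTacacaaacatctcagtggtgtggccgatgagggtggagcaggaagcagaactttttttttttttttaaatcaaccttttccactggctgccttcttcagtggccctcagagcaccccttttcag
Gimap6, chr6:48708245-48708494, minus strand: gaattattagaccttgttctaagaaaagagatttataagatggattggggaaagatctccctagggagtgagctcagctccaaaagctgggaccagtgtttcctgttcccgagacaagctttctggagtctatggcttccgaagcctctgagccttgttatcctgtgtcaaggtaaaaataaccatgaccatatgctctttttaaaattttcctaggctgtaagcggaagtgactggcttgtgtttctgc
Gimap8, chr6:48646984-48647233, plus strand, the first of its 2 listed start sites: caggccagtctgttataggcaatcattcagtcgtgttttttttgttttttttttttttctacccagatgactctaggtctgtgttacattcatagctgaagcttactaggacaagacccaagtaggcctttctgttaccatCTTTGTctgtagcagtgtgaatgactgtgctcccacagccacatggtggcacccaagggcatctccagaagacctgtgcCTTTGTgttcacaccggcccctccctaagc

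Gimap8 holds 2 such matches, 109 and 30 bases before the listed start site, and Gimap3 holds 1, 130 bases before its own. By the gene coordinates of the same build, Gimap8 begins at 48647186, inside the printed window. By that start, the match 30 bases before the listed site lies within the gene. Gimap6 holds 0. The letters were in none of the windows of the other 5 members. In all they were in 3 of 9 GIMAP windows (33.3%), near the 27.6% of 32851 windows of this length over all genes. Both windows of Gimap8 are among the 3 and hold the same 2 matches. A match is a description of the letters and not evidence of binding. The same 9 GIMAP windows were searched for GGAAGT (an ETS core), TGTGGT (a RUNX core) and CACCC (a KLF core), on both strands. The first was in 2 windows, against 19.7% of all windows, the second in 3, against 14.0%, and the third in 6, against 52.0%. The 9 windows include both of Gimap8, which overlap. No motif is contained in another, and CTTTGA and CTTTGT share their first 5 letters.

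In thymocytes without TCF-1, GIMAP levels were lower than in wild type thymocytes or identical to them. Gimap3, Gimap6 and Gimap8 were lower by more than 2-fold, Gimap9, Gimap1, Gimap7 and Gimap5 by less, and Gimap4 had the same deposited value (0.13 and 0.15 above wild type with arrays centred on their medians or quantile normalised). On the transgenic array all members were within 2-fold of wild type, and Gimap3 had the largest difference. The plot of levels on the 3 arrays shows each member.

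**Figure D1:**
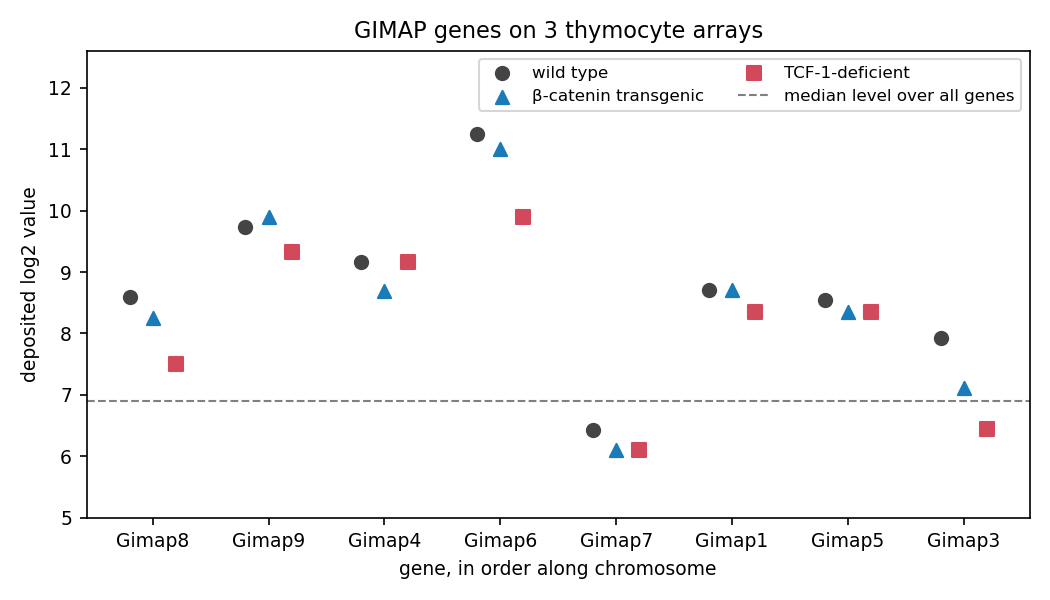
Deposited log2 value (vertical axis) of each GIMAP gene on the wild type, β-catenin transgenic and TCF-1-deficient arrays, 1 array each, with the median level over all genes as a dashed line. Gimap3, Gimap6 and Gimap8 step down from wild type through transgenic to TCF-1-deficient, and Gimap7 lies below the dashed line on all 3 arrays.

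Gimap6, which binds a protein of the autophagy machinery, had log2 values of 11.24 (wild type), 11.00 (transgenic) and 9.89 (TCF-1-deficient). The difference from wild type was -1.35 without TCF-1 (a fold of 2.54) and -0.24 with the transgene. Gimap6 was thus nearly level on the wild type and transgenic arrays and low on the TCF-1-deficient array. In total, 1.37% of genes had a difference this low or lower without TCF-1.

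Gimap3, a close relative of Gimap5 whose protein sits on intracellular membranes, had log2 values of 7.92 (wild type), 7.12 (transgenic) and 6.45 (TCF-1-deficient). It was different from wild type by -1.47 without TCF-1 (a fold of 2.77) and by -0.80 with the transgene (a fold of 1.74). Both mutant arrays were low for this gene, the TCF-1-deficient one more so. In total, 0.206% of genes had a transgenic minus wild type difference this low or lower, and 1.09% did so without TCF-1. Its value on the TCF-1-deficient array lay under 6.90, the median level over genes. The size of that fold is therefore uncertain.

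Gimap8, the largest protein of the family, with several GTP-binding domains, had log2 values of 8.60 (wild type), 8.25 (transgenic) and 7.50 (TCF-1-deficient). Its difference without TCF-1 was -1.10 (a fold of 2.15), and with the transgene -0.35. The value lies near the 2-fold rule: with each array centred on its median it was -0.97, and after quantile normalisation -0.92. These 3 members, Gimap3, Gimap6 and Gimap8, were the ones that ran from wild type through transgenic to TCF-1-deficient in falling order, as did 9.77% of all genes.

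The other 5 members differed by at most 0.49 in either comparison with wild type. Gimap9 had log2 values of 9.74 (wild type), 9.89 (transgenic) and 9.33 (TCF-1-deficient). It was the 1 member with its highest value on the transgenic array, by 0.15 over wild type. Gimap1, which is needed for mature lymphocytes, had the same log2 value of 8.70 in wild type and transgenic thymocytes and 8.35 in TCF-1-deficient ones. Its difference without TCF-1 was -0.34.

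Gimap5, whose loss causes lymphopenia in rats and mice, had a log2 value of 8.55 in wild type thymocytes and 8.35 on both mutant arrays. A difference of -0.20 lies inside the 95th percentile of the spread between probe sets of 1 gene in both comparisons. Gimap7, which acts through dimers of its GTP-binding domain in human cells, was at 6.43 on the wild type array and 6.10 on both mutant arrays. It reached the median level over genes on 0 of 3 arrays, so little can be read from its difference of -0.33. Gimap4, a gene induced during thymocyte maturation whose product speeds the death of T cells, had a log2 value of 9.17 in both wild type and TCF-1-deficient thymocytes and 8.69 in transgenic ones. By the deposited values Gimap4 was thus lowest on the transgenic array, with a difference of -0.49 from wild type.

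Identical values need care. Of the 8 members, 4 have the same value on a pair of arrays to the last printed digit: Gimap1, Gimap4, Gimap5 and Gimap7. Over all genes, 36.4% had identical values between TCF-1-deficient and wild type, 53.3% between transgenic and wild type and 41.0% between transgenic and TCF-1-deficient. An identical value is therefore a feature of the deposited table and not a measured equality.

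**Figure D2:**
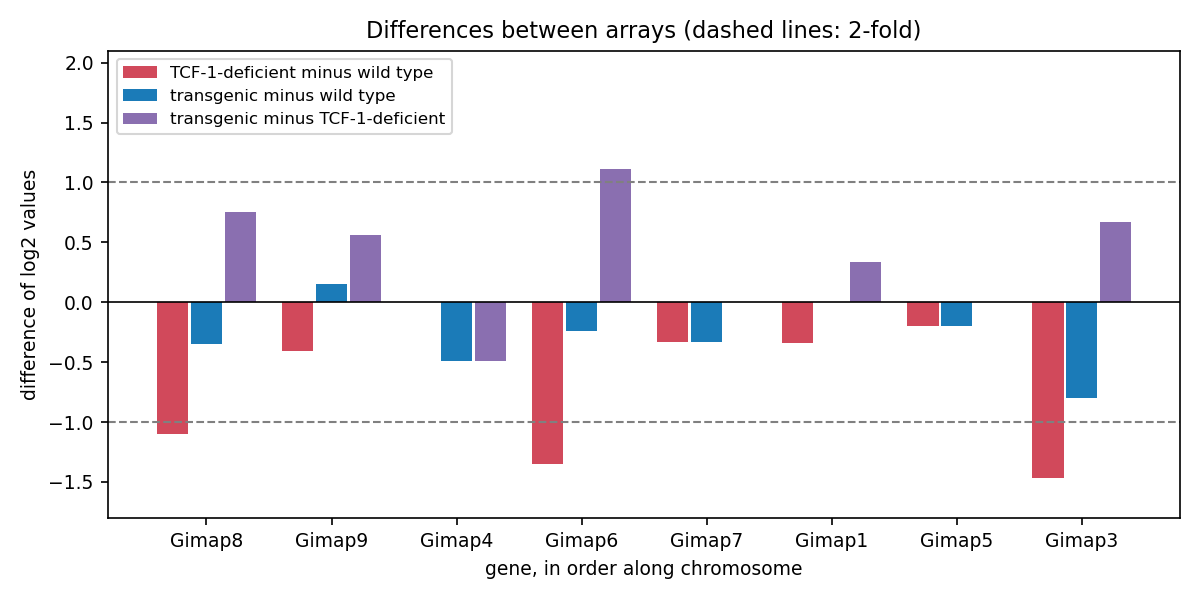
Difference of log2 values (vertical axis) for each GIMAP gene in the 3 comparisons between arrays, with dashed lines at 2-fold. 3 bars pass the lower line, those of Gimap8, Gimap6 and Gimap3 for TCF-1-deficient minus wild type, and 1 bar passes the upper line, that of Gimap6 for transgenic minus TCF-1-deficient.

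Counted over the family, 3 of 8 members were lower by at least 2-fold without TCF-1 and 0 were higher, against 2.62% and 1.33% of all genes. The median difference was -0.38, and that over all genes was 0. By any amount, 7 of 8 were lower and 0 higher, against 26.1% and 37.6% of all genes. At 1.5-fold the counts stayed at 3 lower and 0 higher, against 6.9% and 4.04% of all genes. The differences ran from -1.47 to 0. Genes at or above the median level, as 7 of the 8 members are by their mean over the arrays, were lower by at least 2-fold in 4.8% of cases. By any amount, 45.8% of those genes were lower.

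For the transgene, 0 of 8 members passed 2-fold in either direction (0 lower, 0 higher), where 0.0953% and 0.15% of all genes were. Of the 8, 6 were lower by any amount, 1 was higher and 1 was identical, against 22.2%, 24.5% and 53.3% of all genes. Among genes at or above the median level, 37.4% were lower by any amount. At 1.5-fold, 1 member (Gimap3) was lower and 0 were higher, against 0.667% and 0.487% of all genes. The family median was -0.29. Gimap3, at -0.80, and Gimap4, at -0.49, lay beyond the 95th percentile of the spread between probe sets of 1 gene (0.42), and the other members lay within it. With centring or quantile normalisation Gimap4 was at -0.41, just inside that value. Both comparisons use the same wild type array, so a high level on that array would lower both.

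The transgenic and TCF-1-deficient arrays were also compared directly, without the wild type array. Gimap6 was higher on the transgenic array by 1.11 (a fold of 2.16), the 1 member of 8 beyond 2-fold, where 2.45% of all genes were higher. The lower side held 0 of 8 members, against 1.57% of all genes. Gimap8 was higher by 0.75, Gimap3 by 0.67, Gimap9 by 0.56 and Gimap1 by 0.34. Gimap5 and Gimap7 were identical on these arrays, and Gimap4 was lower on the transgenic array, by 0.49. Over the family 5 members were higher, 1 lower and 2 identical, against 24.6%, 34.4% and 41.0% of all genes, and the median was 0.45. Of 9969 genes at or above the median level, 4274 were higher and 3590 lower. At 1.5-fold, 3 were higher and 0 lower, against 6.29% and 4.4% of all genes. After quantile normalisation Gimap6 was at 0.97 in this comparison, just under 2-fold.

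**Figure D3:**
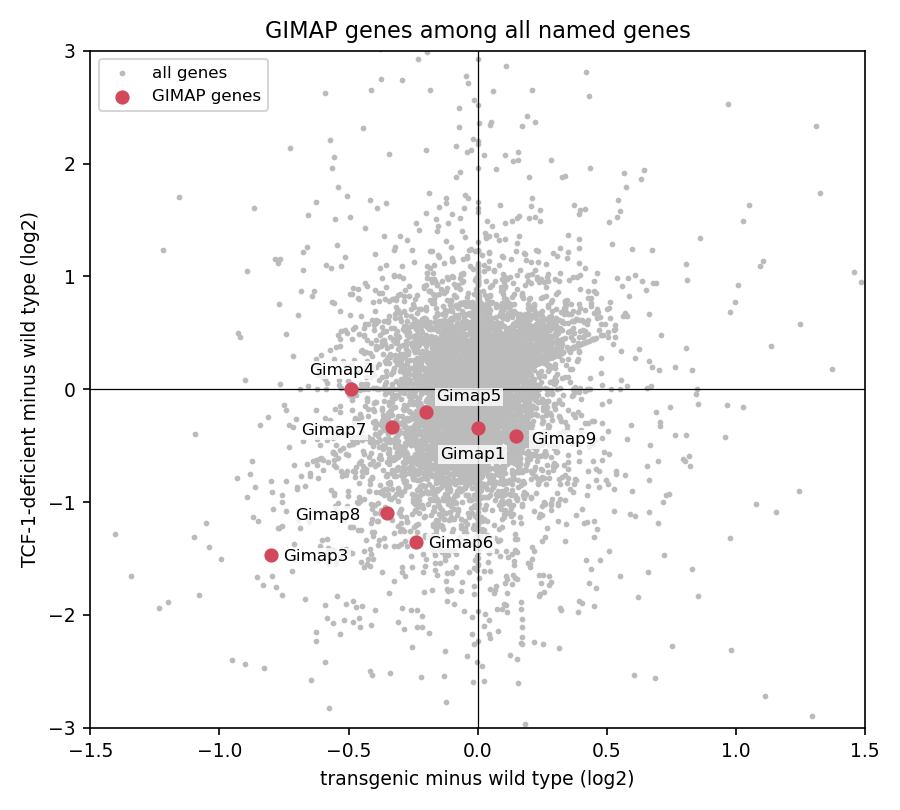
Transgenic minus wild type (horizontal axis, log2) against TCF-1-deficient minus wild type (vertical axis, log2) for all named genes in grey and the GIMAP genes in red. The 55 genes outside the plotted range are not drawn, and both axes share the wild type array; Gimap3, Gimap6 and Gimap8 lie at the lower left, at -1.47, -1.35 and -1.10 on the vertical axis.

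The genes with the pair of differences nearest to the family medians were Adamts3 (-0.38 without TCF-1 and -0.28 with the transgene), Arc (-0.38 and -0.30), Zc3h6 (-0.36 and -0.27), Ikbke (-0.39 and -0.27) and Fnbp4 (-0.36 and -0.27). Likeness was the Euclidean distance over these 2 differences, which come from 3 arrays, among 9490 genes. So few arrays cannot separate a likeness of these genes from the many others with small negative differences.

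The 8 genes follow each other on chromosome 6 in the order Gimap8, Gimap9, Gimap4, Gimap6, Gimap7, Gimap1, Gimap5 and Gimap3, with no other measured gene between them. The members lower by at least 2-fold without TCF-1 were not next to each other: Gimap8 and Gimap3 lie at the ends and Gimap6 inside. Gimap6 and Gimap3 are the 2 members on the minus strand and had the largest differences. The other 6 are on the plus strand. Neighbouring members could thus differ widely, as Gimap4 (identical deposited values) and Gimap6 (-1.35) did, or Gimap5 (-0.20) and Gimap3 (-1.47).

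Of the 20 nearest measured genes outside the cluster, 10 on each side, 0 were lower by at least 2-fold without TCF-1 and 4 were higher. The shares over all genes were 2.62% and 1.33%. On the side of Gimap3, the adjoining measured genes were Tmem176b and Tmem176a, which encode related membrane proteins. Tmem176b had log2 values of 8.72 (wild type), 8.67 (transgenic) and 10.33 (TCF-1-deficient), a difference of 1.61 without TCF-1. Tmem176a was higher by 1.26. On the side of Gimap8, Repin1, a zinc finger gene, was higher by 1.03. The remaining higher neighbour was Igf2bp3, whose product binds mRNA, at 3.63. Gimap3 (-1.47) and Tmem176b, 63.0 kb apart, thus differed in direction. The next measured gene after Tmem176a, Gm7932, had identical values, so no single step along the chromosome was seen. Of the 20 neighbours, 12 had identical values in TCF-1-deficient and wild type thymocytes, against 36.4% of all genes. Many of the 20 were dim, lying under 6.90 on all 3 arrays, such as Zfp775 (6.60) and Aoc1 (5.20). Identical values are more common in dim genes: 7249 of 19938 genes had them, but only 1871 of the 9969 at or above the median level. The counts of identical and lower neighbours are therefore not a trait of the region. With the transgene, 0 of the 20 were beyond 2-fold, against 0.0953% lower and 0.15% higher over all genes.

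**Figure D4:**
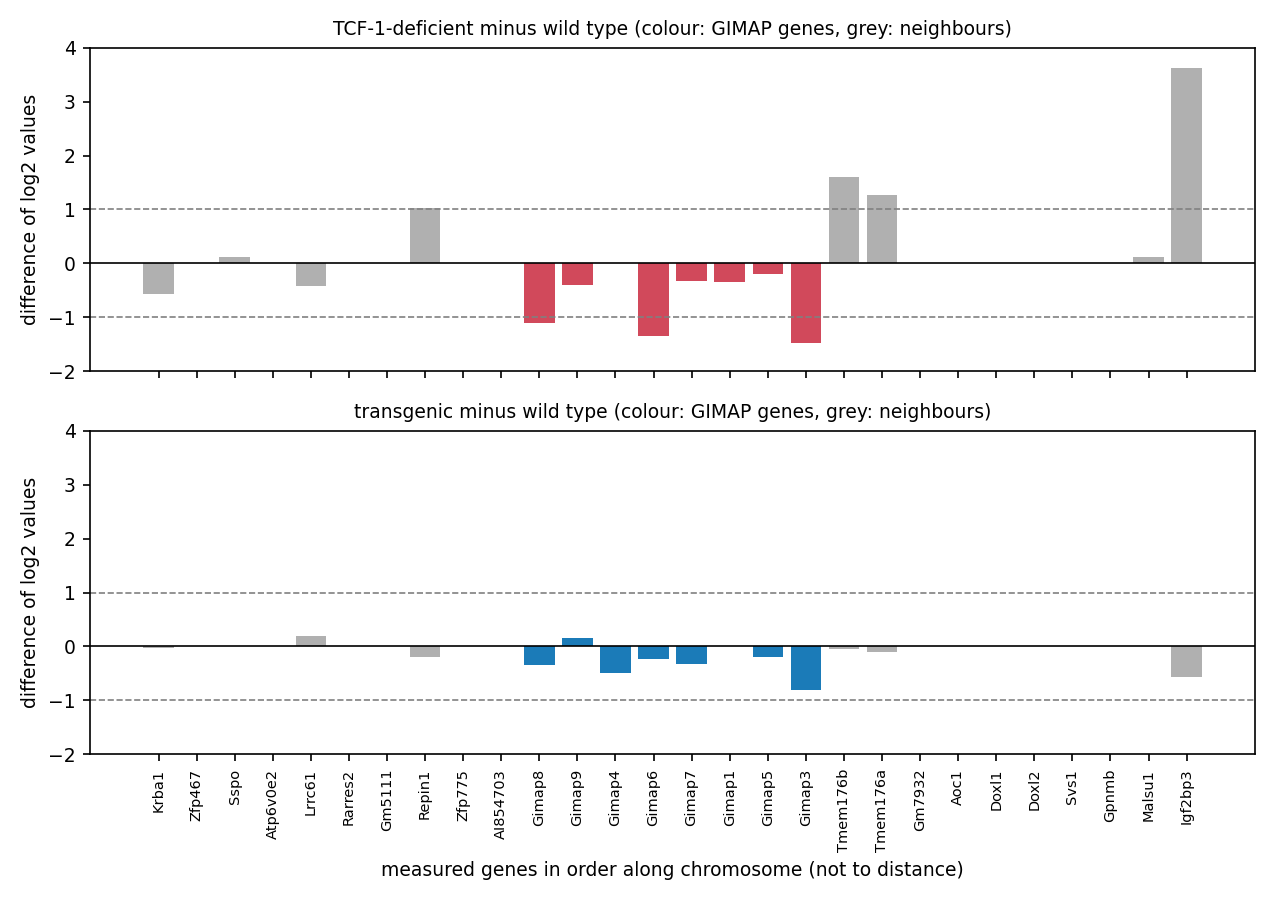
Difference of log2 values (vertical axis) for the GIMAP genes in colour and the 10 nearest measured genes on each side in grey, in order along the chromosome and not to distance, for TCF-1-deficient minus wild type (top) and transgenic minus wild type (bottom). In the top panel the coloured bars lie at or below 0 and the Tmem176b, Tmem176a and Igf2bp3 bars after them lie above 1.

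Genes of proteins reported to work with GIMAPs were put in a list together with further BCL-2 family, autophagy and other genes. The list is thus not one of GIMAP partners alone. Of the 15 measured, 1 was lower by at least 2-fold without TCF-1 and 0 were higher, against 2.62% and 1.33% of all genes. The median was -0.28. Bcl2l1, the gene of pro-survival BCL-XL, had log2 values of 10.23 (wild type), 10.48 (transgenic) and 8.58 (TCF-1-deficient), a difference of -1.65. Gsk3b, a kinase that Gimap5 is reported to hold in check, differed by -0.94, Gabarapl1, an autophagy protein, by -0.74, Mcl1, a pro-survival protein, by -0.71, and Map1lc3b, another autophagy protein, by -0.67. Each was lower without TCF-1 and under the 2-fold rule. Gabarapl2, the autophagy protein that Gimap6 binds, had log2 values of 11.47 (wild type), 11.55 (transgenic) and 11.00 (TCF-1-deficient). It was named beyond the 5 largest differences because of that link, after its values were seen. With the transgene the list's median was 0, with 0 of 15 beyond 2-fold, against 0.0953% lower and 0.15% higher over all genes.

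The interferon-inducible GTPases of the IRG and GBP families, are another set of immune GTPases. Of 10 measured genes, 2 were lower by at least 2-fold without TCF-1, against 2.62% of all genes: Gbp8 (-2.53) and Gbp4 (-2.17). The median over the 10 was 0, and 5 of the 10 were dim, lying under 6.90 on all 3 arrays. The difference from the GIMAP median of -0.38 was not tested. The next largest differences were in Irgm1 (0.44), Gbp9 (-0.25) and Iigp1 (0.18). With the transgene 0 of 10 were beyond 2-fold, against 0.0953% lower and 0.15% higher over all genes. By any amount 7 of the 10 were lower, against 22.2% of all genes, and the median was -0.06.

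Stage and cell type markers differed on the same arrays. Of 21 genes of mature single-positive thymocytes and naive T cells, 7 were lower by at least 2-fold without TCF-1 and 0 were higher, with a median of -0.81. Over all genes these shares were 2.62% and 1.33%. The largest differences were in Il4ra, the IL-4 receptor (-2.26), Cd69, an early activation marker (-2.24), Ccr9, a chemokine receptor (-1.81), Themis, a T cell receptor signalling protein (-1.75), and Cd52 (-1.66). Not all members were lower: Il7r, the IL-7 receptor, was at 0.63, Klf2, a transcription factor of mature T cells, at 0.38 and Itgb7, an integrin chain, at 0.01, while S1pr1, the egress receptor, was at -0.25. These 4 were chosen after their values were seen. The list's summed linear signal was 42959 in wild type, 40511 in transgenic and 19731 in TCF-1-deficient thymocytes. With the transgene its median was -0.28 and 0 of 21 were beyond 2-fold, against 0.0953% lower and 0.15% higher over all genes. The GIMAP median there was -0.29, that of the regulatory T cell genes -0.29 and that of the DN3 and Notch-induced genes -0.23.

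The list of 18 double-positive genes held 14 that fell below wild type by 2-fold or more without TCF-1, against 2.62% of all genes. Its median was -1.44, and the summed linear signal was 80414, 86398 and 28220 in the same order of arrays. Cd4, the co-receptor, differed by -3.74, Bcl6, a repressor, by -2.58, Slamf1, a co-stimulatory receptor, by -2.26, Cd8b1, a chain of CD8, by -2.10, and Rag1, a recombinase subunit, by -1.95. With the transgene this list was at a median of 0.06. The samples thus differ in markers of stage. Where a sample holds cells of several types, fewer cells of a type and less RNA per cell cannot be told apart. The part of these shifts in the GIMAP differences was not tested.

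B lymphocytes also express GIMAP genes. The counts below are at 2-fold, where 1.33% of all genes were higher and 2.62% lower without TCF-1. Without TCF-1, the list of 14 B lymphocyte genes held 6 that were higher by 2-fold or more and 0 that were lower, with a median of 0.95 and a summed linear signal of 2093, 2378 and 4885 on the wild type, transgenic and TCF-1-deficient arrays. Of 14 DN3 and Notch-induced genes, 8 were higher and 1 lower (median 1.39), with summed signals of 28938, 26552 and 34341. Of 17 γδ, innate-like and NK genes, 4 were higher and 1 lower (median 0), with summed signals of 5481, 4365 and 10739. Of 18 myeloid genes, 3 were higher and 0 lower (median 0.17), with summed signals of 2415, 2709 and 5853. Of 10 regulatory T cell genes, 3 were higher and 0 lower (median 0), with summed signals of 4654, 3196 and 10917. Single genes carry much of some sums: Il2ra, the IL-2 receptor α chain, differed by 2.06 and is in both the regulatory T cell and DN3 lists. Cd3e and Rag1, at 13.42 and 13.04 on the wild type array, carry much of the DN3 sum. Both were lower without TCF-1 (-0.37 and -1.95), so that sum says little about the 8 higher genes. Foxp3, the defining regulatory T cell factor, had the identical deposited value of 7.08 on all 3 arrays, which is not a measured equality. Ly86, which differed by 4.01, carries much of the myeloid sum. Besides Il2ra, Themis is in both the single-positive and double-positive lists, Rag1 in the double-positive and DN3 lists, and Blk in the B lymphocyte and γδ lists, so these lists are not independent. The lowest deposited value is 1.73, so no marker is at 0, and the part of these cells in the GIMAP values was not tested.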

How the data were processed

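RNA from thymocytes of 3 genotypes was measured on 1 array each. The authors deposited a table of log2 values for 35556 probe sets: RMA and Partek are named per the submitters' processing notes, and RMA ends in log2 values. They lie between 1.73 and 14.85, and the log base is not written in the file. Neither the labels nor the file give tool versions, settings or a genome build. Arrays carry no read depth, and their number limits the precision.

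Of the probe sets, 21789 have 1 gene symbol in the platform annotation and stand for 19938 genes. For the 999 genes with several probe sets, the one with the highest mean was used. Each of the 8 GIMAP genes matched 1 probe set by symbol and Entrez identifier. The reference lists Gimap5 as an older name of Gimap3, so matching used current symbols. Signal shared between these related genes was not tested. Columns outside the series numbered 0.

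Differences and 2-fold counts were computed over all genes, with no test. The named genes are all 8 members, up to 5 genes per list by the size of the difference without TCF-1, 10 neighbours per side and the 5 genes nearest to the family median. The members and lists were chosen with earlier results of these data known. Promoter windows came from RefSeq (GRCm38.p6). All 8 genes matched, giving 9 windows, and their strand was checked on 1230 overlapping pairs of windows, of which 1230 matched. Gene order is that of the same build. The calculations were tested on simulated data. Alternatives were other thresholds, centring, quantile normalisation, loess (span 0.3), the mean of probe sets and a filter on dim genes. Python 3.11.15, NumPy 2.4.6, pandas 2.3.3 and statsmodels 0.14.6 were used.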

Additional observations from a re-analysis of the deposited data

How the results depend on the processing

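No paired analysis was possible because each genotype has 1 array. For the same reason no array could be left out. For TCF-1-deficient minus wild type, the number of GIMAP genes called lower was 3 in the deposited values, 3 at 1.5-fold, 0 at 3-fold (0.878% of all genes), and 2 after centring each array on its median (2.03%) or after quantile normalisation (1.99%). The median of -0.38 became -0.24 under both of these scalings, which move the median over all genes to 0.13 and 0.16, and Gimap4 went from identical values to 0.13 and 0.15. For transgenic minus wild type, 1 member (Gimap3) was lower at 1.5-fold, and the median of -0.29 became -0.21 with centring, where Gimap1 went from identical values to 0.08. For transgenic minus TCF-1-deficient, the 1 member higher at 2-fold became 3 at 1.5-fold, 0 at 3-fold (0.888% of all genes) and 0 after quantile normalisation (2.12%). Its median of 0.45 became 0.56 without genes below the median level and 0.62 without members of identical value, an alternative chosen after seeing the data. Gimap5 and Gimap7, identical in this comparison, lay between -0.07 and 0.02 over the alternatives. The other members kept the direction of each difference under all of these alternatives. A value counted as moved when it shifted by more than the median spread between probe sets of 1 gene, which was 0.12, 0.05 and 0.11 in the 3 comparisons over the 593 genes with several probe sets at or above the median level. The loess fit moved none of the counts or medians by that much. The mean of probe sets could not move them, since each member has 1 probe set.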
